A study of Mus musculus with 4 samples.

Results

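The genes described here encode molecular chaperones, read in whole mouse embryos that carry a missense allele of Btaf1. They comprise 37 genes, taken as every non-control probe whose gene name on the array was one of 37 chosen symbols. These symbols had 69 probes of the 41174 on the array, and 35 of the genes had a probe that passed the filter on dim spots, out of 13185 genes tested. One value per gene came from its brightest probe that passed. By role they were 7 inducible heat shock genes, 2 heat shock factors, 10 genes of the constitutive HSP70 system, 7 genes of HSP90 and its partners, 8 subunits of the CCT chaperonin, and 3 mitochondrial chaperones (Hspa9, Hspd1 and Hspe1), so the working name "cytosolic chaperones" did not cover every gene.

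Both groups were pools of whole embryos on a hybrid C57BL/6J and FVB/NJ background, with 50 to 90% FVB, the C57BL/6J founders having been mutagenized. One pool was homozygous for Btaf1 V1330M and the other was wild type. Embryos had 3 to 5 somites where possible. In the stage_matched set, pools were matched first by somite number. In the age_matched set, pools were built to hold as many litter mates as possible, and a difference of up to 5 somites was accepted. Each set was 1 pair of pools, hybridised on 2 two-colour arrays with the dyes exchanged, so n is 2 sets and the 2 arrays of a set are technical repeats. The labels do not say how many embryos a pool held, whether the yolk sac was kept, or whether the sets shared embryos. For the mean ratio, p-values rest only on the spread between these 2 differently matched sets, moderated in limma by that of all tested probes. They cannot be read as a spread between embryos.

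Chaperones bind unfolded or partly folded proteins and use cycles of ATP binding to let them fold. HSP70 proteins act early, with J-proteins (DNAJ) that load clients and exchange factors (BAG, HSPH) that release them. HSP90 finishes signalling proteins together with co-chaperones, and CCT is a double-ring chamber that folds actin and tubulin. Heat shock factor HSF1 raises transcription of the inducible members through heat shock elements in their promoters. BTAF1, the mammalian counterpart of yeast Mot1, uses ATP to take TBP, the TATA-binding protein, off promoters.

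The promoters show what most of the inducible genes share and how alike those of Hspa1a and Hspa1b are. Sequence came from RefSeq on GRCm38.p6, which holds a promoter of 300 bases, from 250 before to 50 after the start, for 31 of the 37 genes. Capitals mark a pair of heat shock element units (GAANNTTC or TTCNNGAA, each its own reverse complement) and the CCAAT box (CCAAT or ATTGG). Hspa1a, at chr17:34972157-34972276 on the minus strand, and Hspa1b, at chr17:34959239-34959358 on the minus strand, encode the inducible HSP70, and the 120 bases before their starts are:
Hspa1a: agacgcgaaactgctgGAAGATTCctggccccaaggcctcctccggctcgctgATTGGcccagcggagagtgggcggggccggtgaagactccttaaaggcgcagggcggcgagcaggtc
Hspa1b: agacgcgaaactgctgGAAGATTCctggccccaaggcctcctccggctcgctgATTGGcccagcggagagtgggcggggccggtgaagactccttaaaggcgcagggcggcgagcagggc
These stretches differ at 1 of 120 bases. The promoter of Hspb1, the small heat shock protein gene with the lowest mean among the 35, holds 2 such pairs between chr5:135887794-135887843 on the plus strand:
Hspb1: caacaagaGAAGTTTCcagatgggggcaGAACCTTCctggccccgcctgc
A longer run of units, marked in capitals, lies between the head-to-head genes Hspe1 and Hspd1 at chr1:55088053-55088082, shown on the plus strand:
Hspe1: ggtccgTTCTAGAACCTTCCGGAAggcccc

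A pair of units was found in 16 of the 31 genes (51.6%), against 17% of all 27025 genes with a promoter in the table. By role, 6 of 7 inducible genes and 3 of 7 CCT genes with a promoter held one. A run of 3 units (GAA and TTC in turn, 2 bases apart, on either strand, which contains the pair) was found in 4 genes, Hsph1, Dnajb6, Hspd1 and Hspe1, against 0.662% of all genes. The CCAAT box, on either strand, was in 16 of 31 genes against 41.1% of all genes. TATAA on the sense strand with its first base 40 to 20 bases before the start was in 1 of 31 genes against 4.22% of all genes. That gene was Stip1, which encodes the adaptor between HSP70 and HSP90, and its TATAA is in capitals here, at chr19:7040027-7040076 on the minus strand:
Stip1: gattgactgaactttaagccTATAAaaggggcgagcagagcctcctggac
These matches describe letters in a window and say nothing of binding.

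Each level is printed as a log2 ratio, mutant over wild type, for the stage_matched array with the mutant in Cy5, the stage_matched array with the mutant in Cy3, and the age_matched arrays in the same order. Means are over the 2 sets, with the SD between them. The 4 arrays shared 1 slide and 1 scan, and 52.9 to 59.6% of spots per channel were well above background, with none saturated. Over all tested probes the ratios correlated at 0.39 between the arrays of the stage_matched set and 0.16 between those of the age_matched set, but at 0.71 and 0.42 between sets in the same dye orientation. Btaf1, whose allele is a missense change, read 0.28, -0.12, 0.20 and 0.05, with a mean of 0.10 ± 0.03 (SD, n = 2 sets, adjusted p = 0.556), which does not check the genotype.

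Among the chaperones, 2 of the 35 tested genes, Hspb1 and Hspa1a, were lower in mutant embryos and none was higher at a limma adjusted p under 0.05 (over all tested probes). Among all 13185 tested genes 4.9% were past that threshold, 2.77% lower and 2.13% higher, so the count of 2 of 35 was near this background. With arrays centred on their median in place of loess the same 2 genes passed, while the share of higher probes among all calls went from 34.8% to 13.0%. At an unadjusted p under 0.05 the count was 9 of 35 genes, against 22.6% of all genes. Means of the 35 genes ran from -0.52 to 0.13 and 24 were negative, against 45.5% of all genes. Their median was -0.13, against 0.02 over all tested genes, with -0.08 for the stage_matched pools and -0.21 for the age_matched pools. On all 4 arrays 9 of 35 genes were negative, against 13.5% of all genes, and 0 were positive, against 14.9%.

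**Figure D1:**
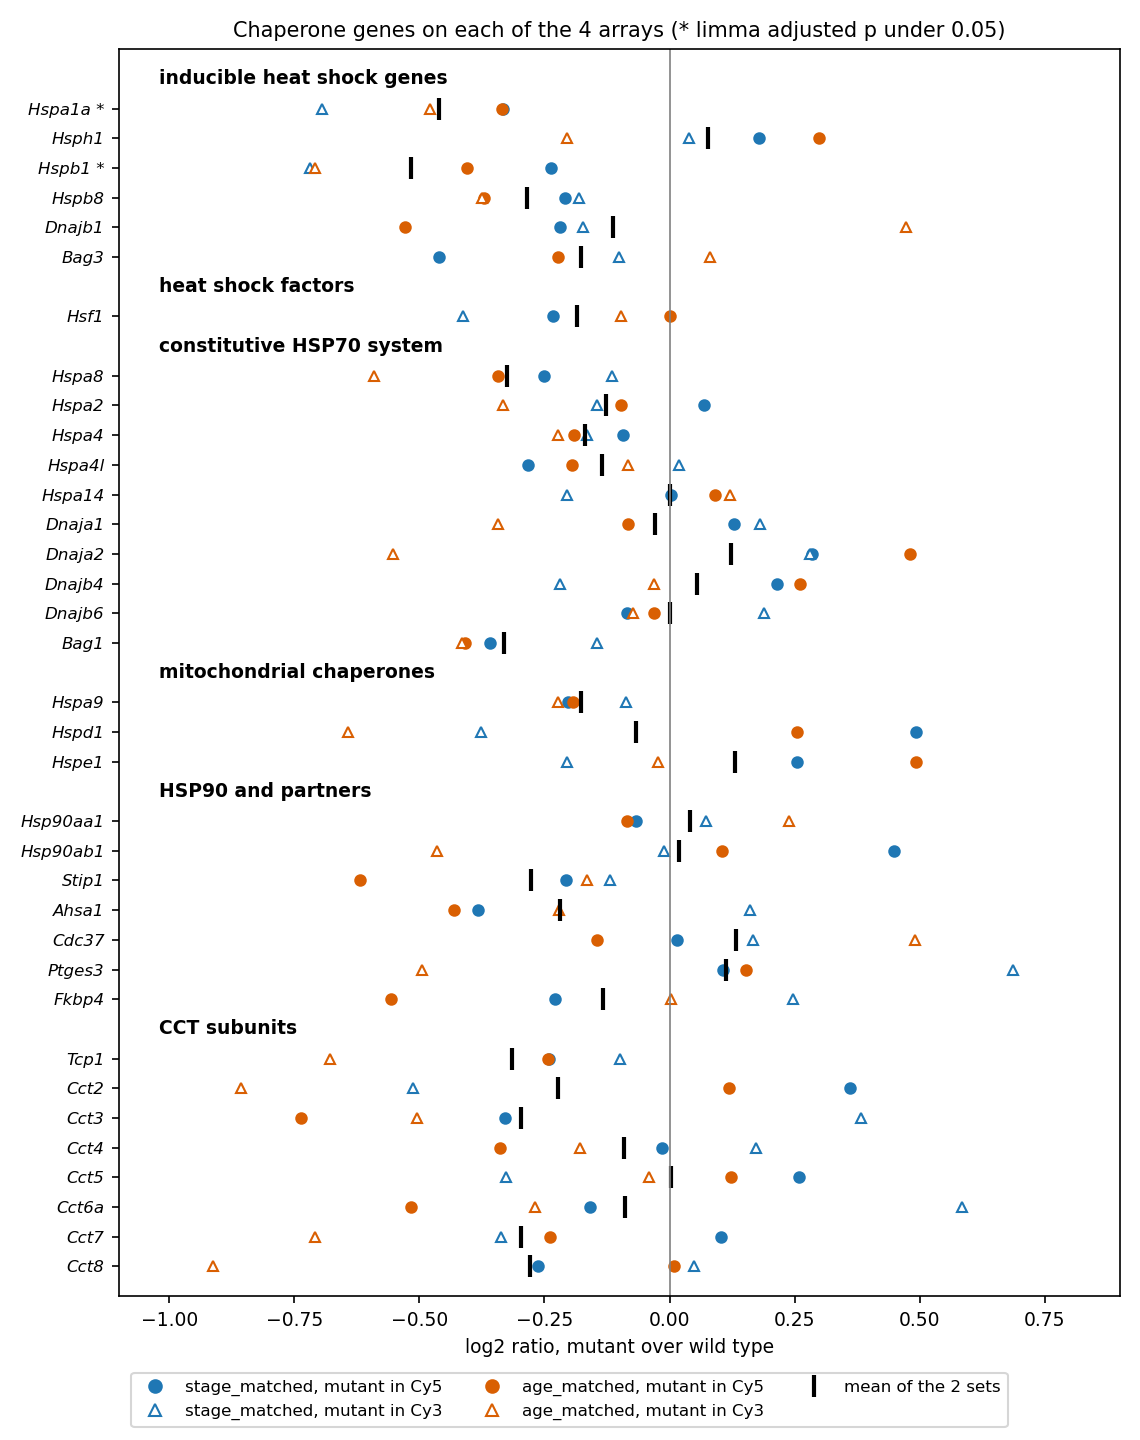
Log2 ratio of mutant over wild type (horizontal axis) for the 35 tested chaperone genes on each of the 4 arrays, grouped by role; circles have the mutant in Cy5, triangles in Cy3, blue is the stage_matched and orange the age_matched set, and black bars are the mean of the 2 sets. Both starred genes, Hspb1 at -0.52 and Hspa1a at -0.46, lie below 0 on all 4 arrays, and most other genes spread across 0.

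The inducible heat shock genes were led by Hspb1 and Hspa1a. Hspb1 encodes HSP27, an ATP-independent holdase that also binds actin filaments, and its probe lies at chr5:136364927-136365114 (mm9, as the scanner files give positions). It read -0.24, -0.72, -0.40 and -0.71, below 0 on every array and lower on both arrays with the mutant in Cy3. The mean was -0.52 ± 0.06 (SD, n = 2 sets, adjusted p = 0.0242), a 1.43-fold higher level in wild type. Hspa1a read -0.33, -0.70, -0.33 and -0.48 at chr17:35106766-35106825 (mm9). Again all 4 arrays were below 0 and the lower value of each set was in the Cy3 orientation. The mean was -0.46 ± 0.08 (SD, n = 2 sets, adjusted p = 0.0341), or 1.38-fold higher in wild type. Its sets stood at -0.51 and -0.41, and the sets of Hspb1 at -0.48 and -0.56, so in both genes the sets lay closer together than the arrays within a set. Each of these calls ended without background correction (adjusted p = 0.0654 for Hspb1 and 0.104 for Hspa1a) and when the stage_matched Cy3 array or either age_matched array was left out, with adjusted p up to 0.213 for Hspb1 and 0.258 for Hspa1a.

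A second Hspa1a probe overlaps the first by 30 bases (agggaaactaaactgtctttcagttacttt), so both read nearly the same stretch of the transcript. It read -0.28, -0.48, -0.34 and -0.41, with a mean of -0.38 (adjusted p = 0.0549), below 0 on all 4 arrays like the first. Hspa1b was not tested, since its 2 probes were well above background on only 3 and 0 of the 4 arrays. These probes also list the Hspa1a transcript in the scanner files, so their signal cannot be assigned to either gene, while both tested Hspa1a probes list the Hspa1a transcript and not that of Hspa1b.

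The remaining inducible genes did not pass the threshold. Hspb8, a small heat shock protein that works with the exchange factor BAG3, read -0.21, -0.18, -0.37 and -0.37, with a mean of -0.28 ± 0.13 (SD, n = 2 sets, adjusted p = 0.132). Dnajb1, the J-protein partner of inducible HSP70, depended on the probe. Its brightest probe read -0.22, -0.17, -0.53 and 0.47, with a mean of -0.11 ± 0.12 (SD, n = 2 sets, adjusted p = 0.540). Its other probe read -0.38, -0.39, -0.87 and -0.36, with a mean of -0.50 (adjusted p = 0.0322), and was below 0 on every array. The probes differed most on the age_matched Cy3 array. Bag3 and the exchange factor Hsph1 had means of -0.18 and 0.08. Across the 6 tested inducible genes the median was -0.23, nearly equal in the stage_matched (-0.24) and age_matched (-0.22) sets. Hsf1, the main regulator of these genes, read -0.23, -0.41, 0.00 and -0.10, with a mean of -0.19 ± 0.19 (SD, n = 2 sets, adjusted p = 0.330). Its other probes had means of -0.07 and -0.06. Hsf2 was not tested, with neither probe well above background on more than 1 array.

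**Figure D2:**
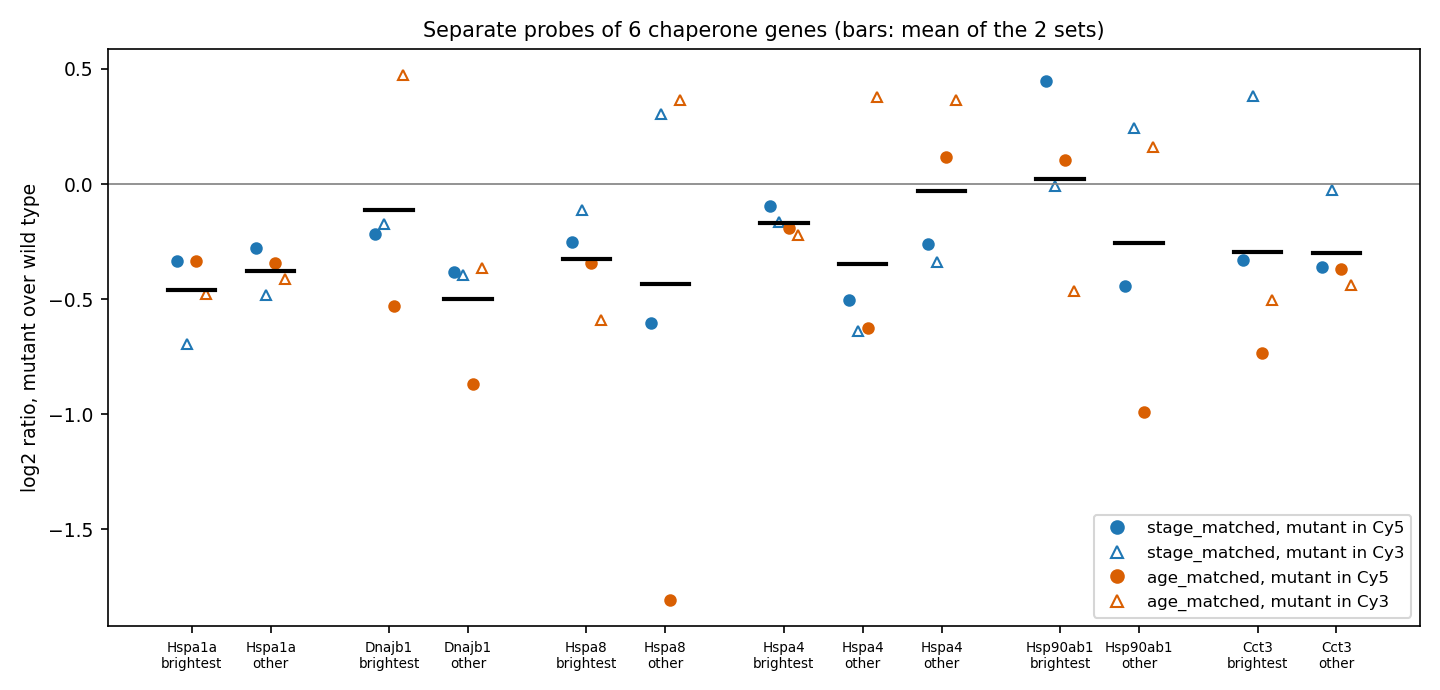
Log2 ratio of mutant over wild type (vertical axis) for each tested probe of 6 chaperone genes, with the brightest probe of a gene first; symbols are the 4 arrays and bars the mean of the 2 sets. Both Hspa1a probes, the brightest probes of Hspa8 and Hspa4, and the other probes of Dnajb1 and Cct3 are below 0 on all 4 arrays. The remaining probes, among them the other Hspa8 probe and both Hsp90ab1 probes, lie on both sides of 0.

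In the constitutive HSP70 system 0 of 10 genes passed the threshold, 6 had a negative mean and the median was -0.08. That median was -0.036 without the age_matched Cy3 array, -0.12 without the age_matched Cy5 array and -0.14 with median centring. Bag1, an exchange factor of HSP70, had the lowest mean, with -0.36, -0.14, -0.41 and -0.41 on the arrays and -0.33 ± 0.11 (SD, n = 2 sets, adjusted p = 0.0880) in all. Hspa8, the constitutive HSP70 of the cytosol, read -0.25, -0.11, -0.34 and -0.59, with a mean of -0.32 ± 0.20 (SD, n = 2 sets, adjusted p = 0.115). Both were below 0 on all 4 arrays. A second Hspa8 probe read -0.60, 0.30, -1.81 and 0.36, with a mean of -0.44 (adjusted p = 0.106) and a sign that followed the dye. The other 8 genes, which include the HSP110-type Hspa4 and the J-proteins Dnaja1 and Dnaja2, had means from -0.17 to 0.12.

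None of the 3 mitochondrial chaperones passed. Hspa9, the mitochondrial HSP70, had the tightest values, -0.20, -0.09, -0.19 and -0.22, with a mean of -0.18 ± 0.04 (SD, n = 2 sets, adjusted p = 0.298). Hspe1, the chaperonin lid, read 0.25, -0.20, 0.49 and -0.02, with a mean of 0.13 ± 0.15 (SD, n = 2 sets, adjusted p = 0.482). Its divergent neighbour Hspd1, the chaperonin itself, had a mean of -0.07 (adjusted p = 0.744). Hspe1 and Hspd1 flank the run of heat shock units shown earlier. Their brightest probes were positive in the Cy5 and negative in the Cy3 orientation in both sets. A second Hspd1 probe read -0.15, 0.27, 0.04 and -0.91, so its sign did not follow the dye. A sign that followed the dye, in either orientation, was seen in 8 of 35 chaperone genes (22.9%) and in 21.1% of all genes.

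HSP90 and its partners centred on 0, with a median of 0.02 and 0 of 7 genes past the threshold. Hsp90aa1, the inducible HSP90, read -0.07, 0.07, -0.09 and 0.24, with a mean of 0.04 ± 0.05 (SD, n = 2 sets, adjusted p = 0.837). Hsp90ab1, the constitutive form, read 0.45, -0.01, 0.10 and -0.46, with a mean of 0.02 ± 0.28 (SD, n = 2 sets, adjusted p = 0.939) and the Cy3 value below the Cy5 value in both sets. A second Hsp90ab1 probe had a mean of -0.26 (adjusted p = 0.198). The lowest of the partners was Stip1, the gene with the TATAA match, at -0.21, -0.12, -0.62 and -0.17, with a mean of -0.28 ± 0.16 (SD, n = 2 sets, adjusted p = 0.148). All 4 of its arrays were below 0. Its probe lies at chr19:7095433-7095492 (mm9), on the chromosome that also carries Btaf1, whose probe lies at chr19:37086826-37086885. A part of the TATAA match or of this position in the Stip1 value was not tested. Ahsa1, which activates the HSP90 ATPase, read -0.38, 0.16, -0.43 and -0.22, with a mean of -0.22 ± 0.15 (SD, n = 2 sets, adjusted p = 0.234). Among the co-chaperones Cdc37, Ptges3 and Fkbp4 means ran from -0.13 to 0.13, and Cdc37 and Ptges3 had a second probe of the opposite sign.

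Of the CCT subunit genes 0 of 8 passed the threshold. Their means were negative in 7 of 8, with a median of -0.25 (-0.14 without the age_matched Cy3 array) and an SD of 0.26 between the medians of the sets, larger than the median itself. Tcp1 (subunit alpha) was below 0 on all 4 arrays, at -0.24, -0.10, -0.24 and -0.68, with a mean of -0.32 ± 0.21 (SD, n = 2 sets, adjusted p = 0.125). Cct3 read -0.33, 0.38, -0.74 and -0.50, with a mean of -0.30 ± 0.46 (SD, n = 2 sets, adjusted p = 0.270). Cct7 read 0.10, -0.34, -0.24 and -0.71, with a mean of -0.30 ± 0.25 (SD, n = 2 sets, adjusted p = 0.160). Among the brightest probes of the subunit genes, only that of Tcp1 had 1 sign throughout. A second Tcp1 probe read -0.19, -0.34, 0.07 and -0.21, with a mean of -0.17 (adjusted p = 0.355). Cct8 read -0.26, 0.05, 0.01 and -0.91, with a mean of -0.28 ± 0.24 (SD, n = 2 sets, adjusted p = 0.176), most of it from the last array. Cct2 read 0.36, -0.51, 0.12 and -0.86, with a mean of -0.22 ± 0.21 (SD, n = 2 sets, adjusted p = 0.253), and its sign followed the dye. Cct4 and Cct6a had the same mean of -0.09, from -0.02, 0.17, -0.34 and -0.18 for Cct4 (SD 0.24, adjusted p = 0.679). Cct6a read -0.16, 0.58, -0.52 and -0.27 (SD 0.43, adjusted p = 0.756). Cct5 was at 0.00 ± 0.05 (SD, n = 2 sets, adjusted p = 0.987), from 0.26, -0.33, 0.12 and -0.04. On the brightest probes of Cct3, Cct4, Cct5 and Cct6a the SD exceeded the size of the mean, so these probes give no direction over both sets. A second Cct3 probe read -0.36, -0.02, -0.37 and -0.44, with a mean of -0.30 (adjusted p = 0.124). The second Cct4 probe read -0.05, -0.24, -0.06 and -0.29, with a mean of -0.16 (adjusted p = 0.344). Both second probes were thus below 0 on all 4 arrays without passing the threshold. The mean of Cct2 became 0.022 without the age_matched Cy3 array.

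In this group 2 genes differed between the sets. The median over the 8 subunit genes was -0.05 for stage_matched and -0.42 for age_matched pools, against 0.01 and 0.02 over all genes. Lower in the age_matched set were 7 of 8 subunit genes, 25 of the 35 chaperone genes and 6353 of all 13185 genes. Medians of other roles were lower there too, at 0.01 and -0.18 for HSP90 and its partners and 0.02 and -0.19 for mitochondrial chaperones. For the constitutive HSP70 system they were -0.07 and -0.17. The inducible median (-0.24 and -0.22) and Hsf1 (-0.32 and -0.05) were not lower. The subunit median was -0.24 on the age_matched Cy5 array and -0.59 on the age_matched Cy3 array, with 5 and 8 of 8 genes negative. Set means were negative for 5 of 8 genes in the stage_matched and 7 of 8 in the age_matched set. The difference itself, age_matched minus stage_matched, was -0.65 ± 0.18 (SE, adjusted p = 0.0174) for Cct3 and -0.61 ± 0.18 (SE, adjusted p = 0.0308) for Cct6a, in limma with terms for set and dye. These were 2 of the 35 chaperone genes, against 2.18% of all genes, with 0.766% of all genes lower in the age_matched set. The error here is between arrays of the same pools, so it does not cover the spread between embryos. No chaperone gene passed this test when the dye term was left out. Nor did any without background correction. Other probes of CCT genes did not all follow the brightest. A second Cct2 probe read 0.10, 0.61, -0.47 and -0.46, with a set difference of -0.82 ± 0.18 (SE, adjusted p = 0.000675), larger than that of any other chaperone probe, while the brightest Cct2 probe gave -0.29 (adjusted p = 0.541). A second Cct3 probe gave a set difference of -0.21 (adjusted p = 0.732), which did not pass. Nor did the second probes of Tcp1, at 0.19 (adjusted p = 0.775), and Cct4, at -0.03 (adjusted p = 0.984). Among the brightest probes Ptges3, an HSP90 co-chaperone also known as p23, came next after Cct3 and Cct6a. It read 0.11, 0.69, 0.15 and -0.49 on the arrays, with a difference of -0.568 (adjusted p = 0.0577). The second Hspa8 probe had a difference of -0.572 (adjusted p = 0.0555).

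**Figure D3:**
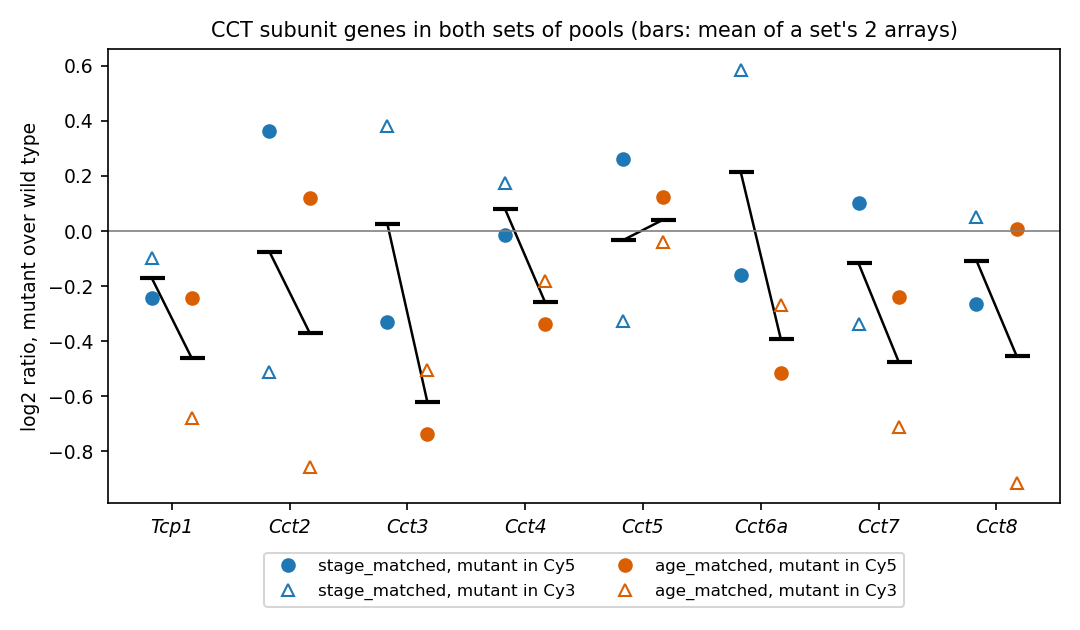
Log2 ratio of mutant over wild type (vertical axis) for the 8 CCT subunit genes, stage_matched arrays on the left and age_matched arrays on the right of each gene; bars are the mean of a set's 2 arrays, joined by a line. The line slopes down in 7 of 8 genes, most steeply in Cct3 and Cct6a, and Cct5 is the exception.

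Genes that work with these chaperones were read from lists written out separately, and few passed the threshold. Counts past it were 0 of 9 for prefoldin and CCT cofactors (median -0.07), 0 of 15 for actin, tubulin and tubulin cofactors (median -0.15), 0 of 20 for other HSP90 co-chaperones (median -0.04), 0 of 15 for other J-proteins and exchange factors (median -0.03) and 0 of 9 for other mitochondrial chaperones and proteases (median -0.00). In these lists the largest means belonged to Pfdn6, a prefoldin subunit (-0.37, adjusted p = 0.0761), Tbca, a tubulin cofactor (0.35, adjusted p = 0.0677), Ppid, a cyclophilin (0.22, adjusted p = 0.236), Dnajc5, a J-protein of secretory vesicles (-0.36, adjusted p = 0.0639), and Lonp1, a matrix protease (-0.22, adjusted p = 0.209). Among all tested genes 4.9% were past the threshold, so a count of 0 in lists this short is near that background. This holds for the substrates and cofactors of CCT and for CCT itself.

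In the endoplasmic reticulum list 3 of 13 genes passed, against 4.9% of all genes, and they went both ways. Sil1, an exchange factor for the HSP70 of that compartment, read 0.36, 0.86, 0.35 and 0.66 and was higher by 0.56 ± 0.07 (SD, n = 2 sets, adjusted p = 0.0206). Hyou1, another exchange factor there, read 0.06, 0.88, -0.21 and 1.07, with a mean of 0.45 ± 0.03 (SD, n = 2 sets, adjusted p = 0.0351). In both sets the value was at most 0.06 in Cy5 and high in Cy3, so its sign did not hold on every array. Sdf2l1, a binding partner of J-proteins, read -0.42, -0.33, -0.73 and -0.70 and was lower by a mean of -0.54 ± 0.24 (SD, n = 2 sets, adjusted p = 0.0335).

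Among other HSP70 and small heat shock genes 2 of 8 passed, against 4.9% of all genes, and both were small heat shock genes of muscle. Hspb3 read -0.56, -0.33, -1.14 and -0.95, with a mean of -0.75 ± 0.42 (SD, n = 2 sets, adjusted p = 0.0266). Hspb2 read -0.32, -0.54, -0.94 and -1.15, with a mean of -0.74 ± 0.44 (SD, n = 2 sets, adjusted p = 0.0287). In both genes every age_matched array was lower than every stage_matched array. The difference between sets was -0.62 ± 0.17 (SE, adjusted p = 0.0257) for Hspb2 and -0.60 ± 0.17 (SE, adjusted p = 0.0348) for Hspb3. Its error is again between arrays of the same pools, and both calls ended without the dye term or without background correction. Hspb1 and Hspb8 differed between sets by -0.08 (adjusted p = 0.939) and -0.18 (adjusted p = 0.798). Cryab, which neighbours Hspb2, had a mean of -0.33 and did not pass. Nor did Hspb7, with a mean of -0.29, or Hspb11, listed here by its symbol alone, with a mean of 0.28.

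**Figure D4:**
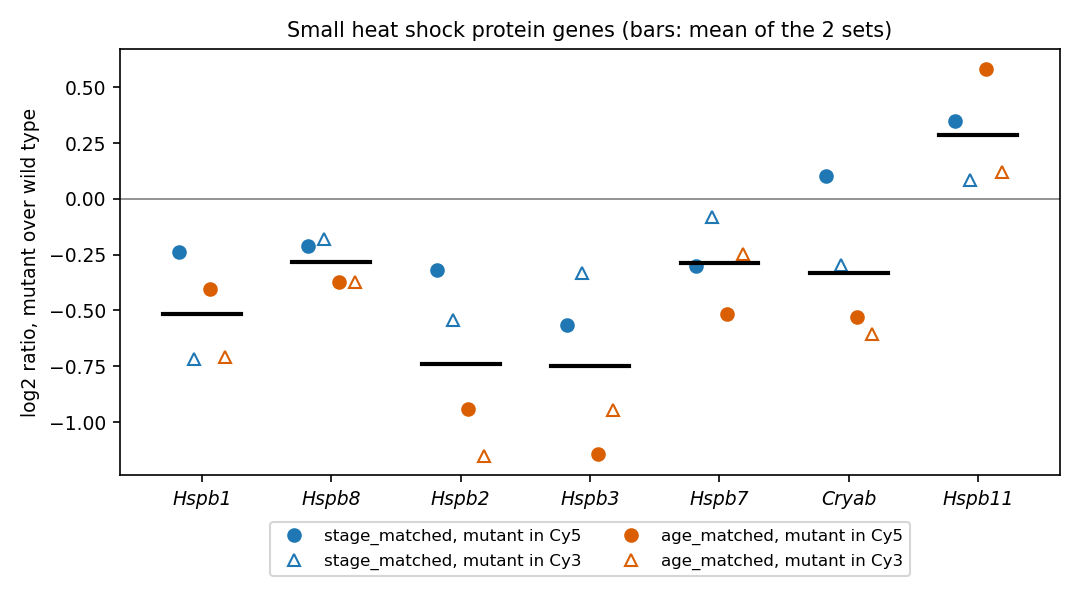
Log2 ratio of mutant over wild type (vertical axis) for 7 genes, Cryab and those with an Hspb symbol, on the 4 arrays, with bars at the mean of the 2 sets. Hspb1 is about equally low in both sets, at -0.48 and -0.56, while Hspb2 and Hspb3 are lower in the age_matched set, near -1.05 against -0.43 and -0.45.

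Markers of other cell types were read on the same arrays. Of 12 heart muscle genes 10 were lower, all 12 had a negative mean, with a median of -0.73 for stage_matched and -1.60 for age_matched pools. Of 12 genes of visceral endoderm and yolk sac 11 were lower, with medians of -1.20 and -1.07. Primitive red cell genes were lower in 3 of 7, with medians of -0.44 and -0.32, but the embryonic globins Hbb-bh1, Hba-x and Hbb-y were lower in the age_matched set by -0.99, -1.06 and -0.87, and Hba-a1 was higher there by 0.64. Differences between sets passed in 4 of these 7 genes and in 11 of the 12 heart genes. Trophoblast genes were lower in 0 of 3 tested, and Tpbpa, Psca and Gcm1 were not well above background. Genes of the embryo proper were higher in 2 of 8 (Tbx6 and Meox1), with medians of 0.13 and 0.38. The heart list and these 3 globins thus moved between the sets in the same direction as Hspb2, Hspb3 and the CCT median. The red cell list as a whole did not, since only 3 of its 7 genes had a lower mean in the age_matched set. The yolk sac list and Hspb1 differed less between sets. The part of these cell types in the chaperone values was not tested. In pooled embryos, fewer cells of a type and less RNA per cell cannot be told apart.

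**Figure D5:**
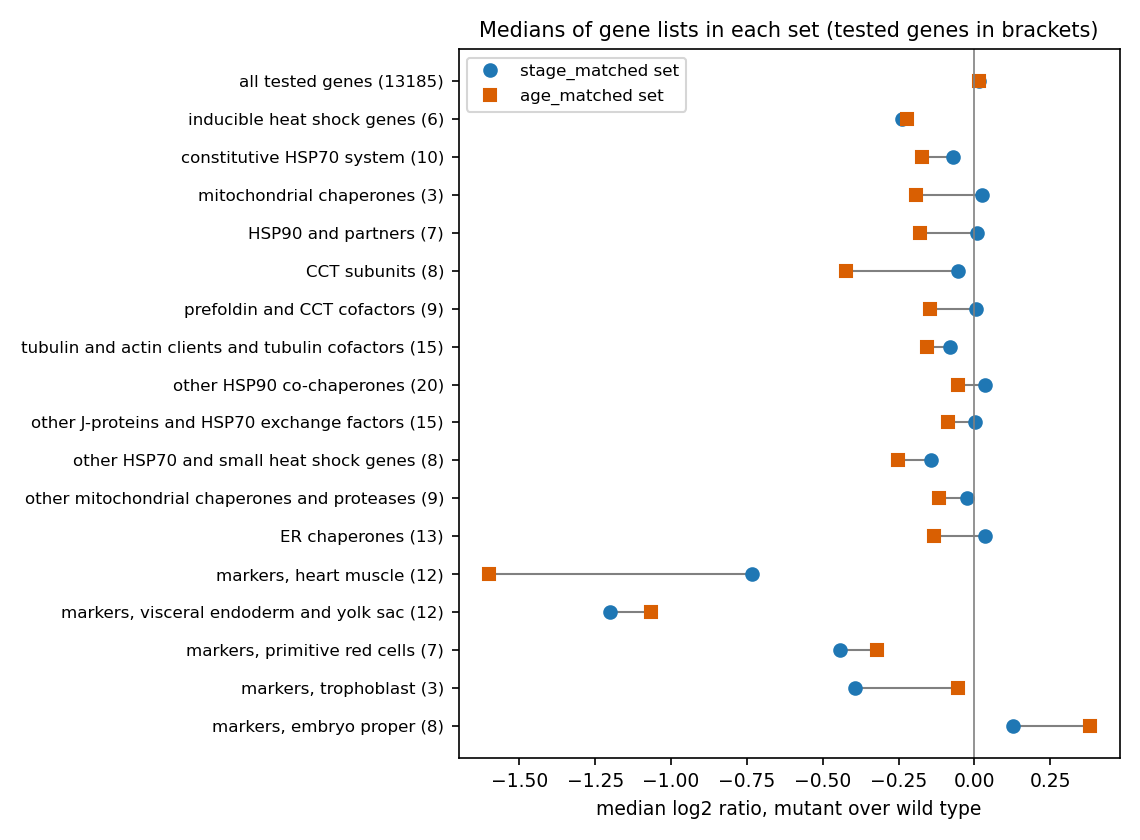
Median log2 ratio of mutant over wild type (horizontal axis) of each gene list in the stage_matched set (blue circles) and the age_matched set (orange squares), with the number of tested genes in brackets. The chaperone lists lie between -0.42 and 0.04, while the heart muscle markers go from -0.73 to -1.60 and the yolk sac markers lie near -1.20 and -1.07.

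Agreement between probes limits these readings. Of 61 tested chaperone probes 47 had a negative mean. Of the 21 genes with several tested probes, 14 had all of them on 1 side of 0, and 14 further genes, among them Hspb1, rested on a single tested probe.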

How the data were processed

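RNA from pools of mutant and wild-type embryos (300 ng per label) was labelled with Cy3 and Cy5 and hybridised to 4 Agilent mouse arrays. The scanner files, as deposited, hold spot intensity and background per channel. The submitters' processing notes name Feature Extraction 9.5.3, and the file headers give 10.5.1.1. The value table deposited by the authors holds log10 ratios equal to the scanner ratios, with the sign turned on dye-swapped arrays, so that they run mutant over wild type, as do all log2 ratios computed here from the deposited intensities.

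Mean signals were background-corrected (normexp, offset 50) and loess-normalized within arrays in limma 3.58.1 (R 4.3.3). Spots of a probe and the 2 arrays of a set were averaged. A probe was tested if well above background on all 4 arrays in the mutant or the wild-type channel (21931 of 41174), and all 35 chaperone genes tested were so in both channels. The 2 set means were fitted with lmFit and eBayes (two-sided, residual df 1, prior df 7.19), and p-values were adjusted by Benjamini-Hochberg over all tested probes. The difference between sets was fitted on the 4 arrays with set and dye terms. Scripts were tested on simulated data. The number of arrays limits the precision. No column was left unused.

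Values on each array are given for genes past adjusted p 0.05, the 2 genes of each role with the largest mean, all CCT and HSP90 genes, and in the other lists for genes past 0.05, with the largest mean of each list. Second probes, Ptges3, the globins, Cryab and the other genes with an Hspb symbol were named after their values were seen. The genes and lists were chosen with earlier results of these data known. Background correction, normalization, filter, probe choice and single arrays were varied.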

Additional observations from a re-analysis of the deposited data

Results flagged for a closer look

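The 4 genes flagged here differed between the 2 sets in the test of the difference itself (age_matched minus stage_matched, limma with set and dye terms). Each set is 1 pair of pools, so the error comes from repeat hybridisations of those pools and the test does not cover the spread between embryos. Over all probes 0 passed this test without the dye term or without background correction, so none of the 4 calls held there. In the CCT group Cct3 differed by -0.65, with set means of 0.03 and -0.62, and Cct6a by -0.61, with set means of 0.21 and -0.39. In both, the stage_matched Cy3 array was the highest of the 4. Among the small heat shock genes Hspb2 differed by -0.62 and Hspb3 by -0.60, each with all 4 arrays below 0. The groups hold 2 arrays each, too few for a test of single outlying arrays.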

How the results depend on the processing

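Alternative values for the named chaperone genes kept the direction and the side of the threshold in 190 cases, lost a call in 8 (all Hspa1a or Hspb1), gained one in 1 (Cct3, -0.48, adjusted p = 0.0418, without the stage_matched Cy3 array), reversed in 9 and moved in 1 (Hspa1a, -0.78 in the authors' deposited table). Without single arrays the means ran from -0.041 to 0.12 for Hsp90aa1, -0.12 to 0.16 for Hsp90ab1, -0.47 to 0.022 for Cct2, -0.14 to 0.15 for Cct5 and -0.28 to 0.096 for Cct6a. Cct5 was -0.011 with median centring and -0.0027 with scaling between arrays. The mitochondrial median reached 0.15 and 0.16 without either Cy3 array, and the HSP90 median ran from -0.049 to -0.014 without single arrays and was -0.081 as a median over probes. The inducible median of -0.23 was -0.21 without background correction, -0.34 with median centring, -0.18 with no filter, -0.30 as a median over probes and -0.32 to -0.19 without single arrays. The counts of 2 chaperone genes lower and 1064 probes past the threshold became 0 and 69 without background correction, and ran over 0 to 2 and 23 to 1207 without single arrays, lowest without the age_matched Cy5 array. Probe calls were 1829 with the scanning software's processed signals and 595 with no filter. Counting any probe gave 3 chaperone genes, with Dnajb1 added. The cause of these changes was not tested.

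The numbers 1 and 2 of a set's arrays mark dye orientation, so the replicate block was the dye term. For the difference between sets, 527 probes and 2 chaperone genes passed with this block, and 0 and 0 without it or without background correction, 150 and 0 with processed signals, and 1 and 0 with median centring. For the mean ratio no paired analysis was possible because each array already sets a mutant pool against a wild-type pool. Leaving out an array leaves no residual degree of freedom for the difference between sets, so that was not run.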
